A study of Mus musculus with 4 samples.

Results

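Described here are 10 genes listed together as feedback inhibitors of the Ras-ERK pathway, measured in activated CD4 T cells. The list holds the MAP kinase phosphatases Dusp1, Dusp2, Dusp4, Dusp5, Dusp6 and Dusp10. It also holds the Sprouty genes Spry1 and Spry2 and the Sprouty-related genes Spred1 and Spred2. The genes were taken by name, by a rule that uses no measured value, although earlier results of these data were known when they were chosen. All 10 matched an identifier among the 39179 gene identifiers in the files. RNA was sequenced from 4 samples, 2 of T follicular helper (Tfh) cells, the helpers of the germinal centre, and 2 of non-Tfh cells. Both groups came from C57BL/6 hosts given T cells of OT-II mice, whose transgenic receptor recognises ovalbumin, and then injected under the skin with ovalbumin carrying nitrophenol. On day 8 the donor cells (Thy-1.1+) were sorted from pooled inguinal lymph nodes, as CD44hi CXCR5+ PD-1+ cells for the Tfh group and as CD44hi CXCR5- PD-1- cells for the non-Tfh group. The cells therefore share a single transgenic receptor and antigen, and the hosts kept lymphocytes of their own. Each group has a sample T32 and a sample T53. Neither the meaning of these numbers nor whether the samples came from separate animals is stated, so the p-values measure the spread between these samples only.

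ERK is the last kinase of a cascade that runs from Ras through Raf and MEK and that the T cell receptor and growth factor receptors switch on. Active ERK induces genes whose products shut the cascade down again. Dual-specificity phosphatases remove the activating phosphates from both the threonine and the tyrosine of MAP kinases: Dusp5 and Dusp6 act on ERK, in the nucleus and in the cytoplasm, Dusp10 acts mainly on JNK and p38, and Dusp1, Dusp2 and Dusp4 are nuclear enzymes with a wider range. Sprouty proteins block the cascade at the level of Ras and Raf, and Spred proteins bring the Ras inhibitor neurofibromin to the membrane. In T cells the strength and length of the ERK signal after receptor contact are known to affect effector differentiation.

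The promoters of the members that differed, Dusp5 and Spred1, and of the most abundant members, Dusp1 and Dusp2, are shown from 200 to 51 bases before the RefSeq start site (build GRCm38.p6), read 5′ to 3′ on the strand of the gene, with matches to the motifs searched in capitals. These are a paired CArG box, the site of serum response factor, in Dusp5, a cyclic AMP response element in Dusp1 and an EGR site in Dusp2, and Spred1 has none.
Dusp5: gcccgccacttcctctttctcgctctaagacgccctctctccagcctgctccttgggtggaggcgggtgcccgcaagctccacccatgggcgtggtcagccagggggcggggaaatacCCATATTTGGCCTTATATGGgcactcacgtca
Spred1: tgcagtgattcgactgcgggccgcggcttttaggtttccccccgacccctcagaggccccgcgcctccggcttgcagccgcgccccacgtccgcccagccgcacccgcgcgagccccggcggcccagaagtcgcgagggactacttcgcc
Dusp1: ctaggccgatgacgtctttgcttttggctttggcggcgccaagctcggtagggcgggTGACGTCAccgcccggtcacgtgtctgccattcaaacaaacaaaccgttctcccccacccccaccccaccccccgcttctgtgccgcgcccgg
Dusp2: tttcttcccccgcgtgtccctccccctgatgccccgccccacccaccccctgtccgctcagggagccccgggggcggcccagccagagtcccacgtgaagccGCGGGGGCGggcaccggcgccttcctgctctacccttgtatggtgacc
The stretches lie at chr19:53528945-53529094 on the plus strand for Dusp5, chr2:117120871-117121020 on the plus strand for Spred1, chr17:26508523-26508672 on the minus strand for Dusp1 and chr2:127335959-127336108 on the plus strand for Dusp2. All are upstream of the gene's RefSeq start. That of Dusp5 overlaps 1 annotated exon, and those of the other 3 overlap no annotated exon.

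The search covered 250 bases before the start, on both strands, for 9 members with a sequence. The CArG box, given here by its name, occurred in Dusp5 as adjoining sites from 82 to 73 and from 72 to 63 bases before the start, and in 1.40% of 27025 promoters searched the same way. The cyclic AMP response element, TGACGTCA, occurred in Dusp1 and in 1.62% of all promoters, and the EGR site, GCGGGGGCG, occurred in Dusp2 and in 2.56% of all promoters. The AP-1 site TGANTCA, the ETS site CCGGAAGT and the STAT site TTCNNNGAA matched none of the 9 members, against 6.87%, 2.93% and 7.18% of all promoters. The motifs do not overlap one another, and a match describes letters in the window, not binding.

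The total gene count was 12354113 and 5725358 in Tfh T32 and T53 and 13360563 and 8636056 in non-Tfh T32 and T53, so that 1 count was worth 0.0748 to 0.175 CPM, the count scaled to library size. All 7 T cell markers, such as Cd3e and Cd4, were counted in every library. Cxcr5 and Pdcd1, the genes of the sorting markers, measured 712 to 747 and 536 to 576 CPM in Tfh libraries and 52.6 to 56.0 and 53.4 to 57.0 CPM in non-Tfh libraries. Among markers of other cells, Cd14, Ncr1, Clec9a, S100a9 and Hba-a1 had no counts in any library, but other markers of the same cells had counts. Counted in every library were 2 of 6 macrophage and monocyte markers, 2 of 3 NK markers and 3 of 6 dendritic cell markers. For granulocytes this held for 0 of 5 markers and for erythroid cells for 0 of 3. Of the 10 marker lists for other cells, 4 had higher sums in both Tfh libraries than in both non-Tfh libraries, those of B, NK, plasma and endothelial cells. The sums were 5.36 and 6.11 CPM in Tfh against 1.79 and 3.60 CPM in non-Tfh libraries for B cells and 44.7 and 57.6 CPM in Tfh against 21.8 and 13.8 CPM in non-Tfh libraries for NK cells. They were 90.1 and 86.3 CPM in Tfh against 74.6 and 75.4 CPM in non-Tfh libraries for plasma cells, and 236 and 230.2 CPM in Tfh against 211 and 228 CPM in non-Tfh libraries for endothelial cells. Pax5, Klrb1c, Xbp1 and Pecam1 made up most of these sums in Tfh cells, and Tnfrsf17 and Kdr were at 0 in every library. Of the 2 tested NK markers, Klrb1c was called higher in Tfh cells and Eomes lower. Eomes measured 0.168 and 0.349 CPM in Tfh T32 and T53 against 2.01 and 1.46 CPM in non-Tfh T32 and T53. The part of such cells in the results was not tested. Of the 11702 genes tested, 994 passed, 523 higher and 471 lower in Tfh cells, and 545 passed without Tfh T53.

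The question was whether Tfh cells carry more or less of the ERK feedback transcripts than activated donor cells outside the Tfh gate. Tfh cells had less Dusp5, the nuclear ERK phosphatase, by 2.51-fold, and more Spred1, by 1.77-fold. The call of Dusp5 held in every alternative fit, and that of Spred1 did not, as given below. Spry1 and Spred2 were also measured higher in both Tfh libraries and Dusp2 lower, without passing the test, while Dusp1, Dusp4, Dusp6 and Dusp10 overlapped between the groups. Of the 9 members that passed the filter on low counts, 1 was called higher, against 4.47% of all genes tested, and 1 lower, against 4.02%, which makes 2 called, against 8.49%. With 9 genes these counts do not set the members apart from other genes. The groups did not overlap for 5 of the 9, against 52.2% of all genes tested, with 3 members higher, against 26.6%, and 2 lower, against 25.6%. At an unadjusted p below 0.05 there were 5 members, against 22.0% of all genes. The median log2 fold change was 0.37 over the 9 members and -0.0054 over all genes tested. In sorted populations a smaller share of cells with the transcript and less RNA per cell cannot be told apart.

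**Figure D1:**
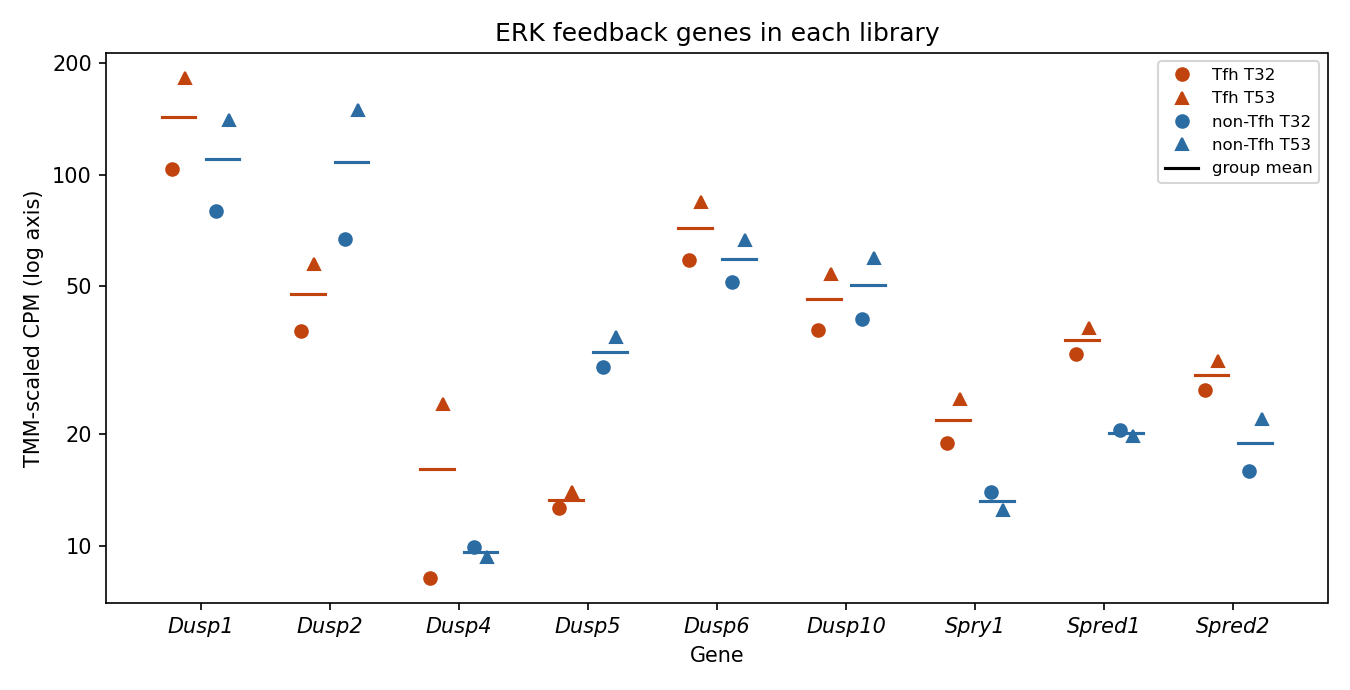
Levels of the 9 tested ERK feedback genes in each library as TMM-scaled CPM on a log axis, with circles for T32, triangles for T53 and bars for the mean of 2 libraries. Both Tfh libraries lie at 12.7 and 14.0 CPM for Dusp5, below the non-Tfh libraries at 30.2 and 36.4 CPM, and Spry2, with 0 to 2 counts per library, is not drawn.

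Dusp5 (ENSMUSG00000034765, GRCm38 chromosome 19, 53529109 to 53542431), a nuclear phosphatase for ERK, had 151 and 80 counts in Tfh T32 and T53 and 406 and 324 counts in non-Tfh T32 and T53. After TMM scaling, which trims extreme genes before it matches the libraries, these were 12.7 and 14.0 CPM in Tfh cells against 30.2 and 36.4 CPM in non-Tfh cells. Both Tfh libraries were below both non-Tfh libraries, and the libraries of each group were close together. Tfh cells averaged 13.3 CPM ± 0.935, against 33.3 CPM ± 4.37 for non-Tfh cells (SD, n = 2 each), a log2 fold change of -1.33 ± 0.171 (SE, edgeR quasi-likelihood test, adjusted p = 0.00805). The call held with each library left out in turn, with log2 fold changes from -1.46 to -1.19 and adjusted p from 0.00652 to 0.0320. The antisense transcript AC137853.2 overlaps Dusp5. How strand was treated in counting is not given in the sources used here, so reads of that transcript could be among those of Dusp5.

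Dusp2 (ENSMUSG00000027368, chromosome 2, 127336159 to 127338376), an inducible nuclear phosphatase of activated lymphocytes, measured 37.9 and 57.3 CPM in Tfh cells against 67.0 and 149 CPM in non-Tfh cells. The groups did not overlap, but non-Tfh T53 lay far above the other 3 libraries, and the difference did not pass (log2 fold change -1.19 ± 0.444, adjusted p = 0.217). Without non-Tfh T53 the log2 fold change was -0.51 (adjusted p = 0.361), and without non-Tfh T32 it was -1.67 and passed (adjusted p = 0.0270). Non-Tfh T53 also had the highest summed levels of dendritic and macrophage markers: the 6 dendritic cell markers summed to 2.60 to 3.14 CPM in Tfh and 3.20 to 6.74 CPM in non-Tfh libraries, and the 6 macrophage and monocyte markers to 4.72 to 4.86 CPM in Tfh and 2.46 to 6.29 CPM in non-Tfh libraries. Of these lists 3 and 2 markers were counted in every library, with Clec9a, Siglech and Cd14 at 0 throughout. The 2 macrophage and monocyte markers counted in every library went opposite ways. In non-Tfh T53 Lyz2 was at its highest (4.38 CPM) and Cd68 at its lowest (0.787 CPM). The part of such cells in the level of Dusp2 was not tested.

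Dusp1 (ENSMUSG00000024190, chromosome 17, 26505590 to 26562128), an immediate early phosphatase for p38, JNK and ERK, measured 103 and 182 CPM in Tfh cells against 79.6 and 141 CPM in non-Tfh cells. The groups overlapped, and the libraries within a group differed more than the group means did (log2 fold change 0.37 ± 0.382, adjusted p = 0.662). Among the T32 libraries and among the T53 libraries the Tfh library was the higher. Without Tfh T53 its log2 fold change was -0.073. Ergic1 overlaps the annotated Dusp1 locus on the other strand and had 316 to 456 counts in Tfh and 372 to 433 counts in non-Tfh libraries. Dusp6 (ENSMUSG00000019960, chromosome 10, 99263231 to 99267489), the cytoplasmic ERK phosphatase, measured 58.9 and 84.4 CPM in Tfh cells against 51.5 and 66.8 CPM in non-Tfh cells. Its groups overlapped in the same way (log2 fold change 0.27 ± 0.213, edgeR adjusted p = 0.545), and the Tfh library was again the higher within each number. Dusp10 (ENSMUSG00000039384, chromosome 1, 184013302 to 184075636), which acts on JNK and p38, measured 38.1 and 54.2 CPM in Tfh cells against 41.0 and 59.8 CPM in non-Tfh cells. For Dusp10 the Tfh library was the lower within each number. Its log2 fold change of -0.13 ± 0.244 did not pass (adjusted p = 0.819) and lay above 0 without Tfh T32 (0.11) or non-Tfh T53 (0.16). The gene 1700056E22Rik overlaps Dusp10 on the other strand and had 15 to 28 counts in Tfh and 29 to 32 counts in non-Tfh libraries.

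Dusp4 (ENSMUSG00000031530, chromosome 8, 34807297 to 34819894), a nuclear phosphatase induced by ERK, measured 8.21 and 24.1 CPM in Tfh cells against 9.91 and 9.33 CPM in non-Tfh cells. Only Tfh T53 was high, and Tfh T32 was below both non-Tfh libraries. The log2 fold change was 0.70 ± 0.514 (adjusted p = 0.525), it was -0.21 without Tfh T53 (adjusted p = 0.888), and it was 1.33 without Tfh T32 (adjusted p = 0.0270). The direction for Dusp4 thus came from 1 library.

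Spred1 (ENSMUSG00000027351, chromosome 2, 117121374 to 117182279), which ties neurofibromin to Ras at the membrane, had 393 and 221 counts in Tfh T32 and T53 and 275 and 176 counts in non-Tfh T32 and T53. Its levels were 32.9 and 38.6 CPM in Tfh cells against 20.5 and 19.8 CPM in non-Tfh cells. The groups did not overlap, and both non-Tfh libraries were nearly equal. Tfh cells averaged 35.8 CPM ± 4.01, against 20.1 CPM ± 0.495 for non-Tfh cells (SD, n = 2 each), a log2 fold change of 0.82 ± 0.151 (SE, edgeR, adjusted p = 0.0247). Without Tfh T53 the log2 fold change was 0.72 and the call was lost (adjusted p = 0.133).

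Spred2 (ENSMUSG00000045671, chromosome 11, 19924375 to 20024026), the close relative of Spred1, measured 26.2 and 31.4 CPM in Tfh cells against 15.9 and 21.9 CPM in non-Tfh cells. The groups did not overlap, but Spred2 did not pass the test (log2 fold change 0.61 ± 0.206, adjusted p = 0.141). Without non-Tfh T53 it passed, with a log2 fold change of 0.85 (adjusted p = 0.0471), and it also passed without a filter on low counts (adjusted p = 0.0173). Spry1 (ENSMUSG00000037211, chromosome 3, 37639947 to 37644598), a Sprouty inhibitor of Ras signalling, measured 18.9 and 24.8 CPM in Tfh cells against 14.0 and 12.5 CPM in non-Tfh cells. Both Tfh libraries were above both non-Tfh libraries, and the difference did not pass (log2 fold change 0.71 ± 0.197, adjusted p = 0.0860). Without the count filter its adjusted p was 0.0114. Gm42922, annotated on the other strand, overlaps Spry1. Spry2 (ENSMUSG00000022114, chromosome 14, 105891947 to 105896819), the Sprouty gene best known from growth factor signalling, had 0 and 2 counts in Tfh T32 and T53 and 2 and 1 counts in non-Tfh T32 and T53. No library exceeded 3 counts, which is worth 0.243 and 0.524 CPM in Tfh T32 and T53 and 0.225 and 0.347 CPM in non-Tfh T32 and T53, so Spry2 was not tested and a difference was not detectable at this depth. Such floors cover counting error only.

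**Figure D2:**
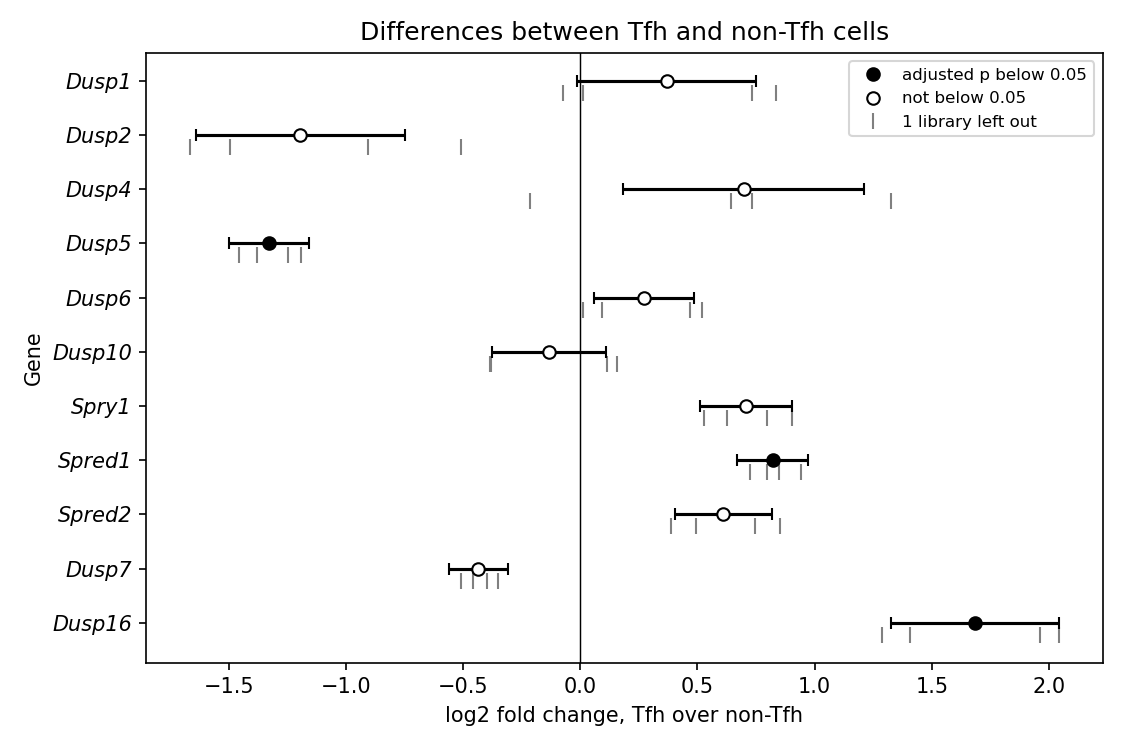
Log2 fold change, Tfh over non-Tfh, of the 9 tested ERK feedback genes and of Dusp7 and Dusp16, with bars for ± SE and grey ticks for the fit with each library left out. Dusp5 (-1.33), Spred1 (0.82) and Dusp16 (1.69) are filled, having an adjusted p below 0.05, and the ticks of Dusp4 run from -0.21 to 1.33.

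To compare levels between genes, CPM were divided by the length of each gene's annotated exons in kilobases. In Tfh cells the order ran from Dusp1 (43.1 ± 16.8 CPM per kilobase) through Dusp2 (23.8 ± 6.86), Dusp6 (22.9 ± 5.75) and Dusp10 (15.2 ± 3.73) to a group of 5 genes between 5.27 and 7.53 CPM per kilobase, with Spry2 at 0.0837. In these cells Dusp2 and Dusp6 did not differ beyond the range of their libraries, nor did neighbours in the order Spry1, Spred2, Dusp4, Dusp5 and Spred1. In non-Tfh cells Dusp2 came first (54.0 ± 29.0), followed by Dusp1 (33.3 ± 13.1), Dusp6 (18.9 ± 3.45), Dusp10 (16.6 ± 4.38) and Dusp5 (13.5 ± 1.77), with 4 genes between 2.97 and 4.56 CPM per kilobase and Spry2 at 0.0626. The ranges of Dusp2 and Dusp1, of Dusp6 and Dusp10, and of Dusp10 and Dusp5 overlapped there, as did those of Spry1 and Spred2 and of Spred2 and Dusp4. Dusp5 thus ranked 8 of 10 in Tfh cells and 5 of 10 in non-Tfh cells.

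The makeup of the phosphatase pool is given as a description with no test. Of the level per kilobase summed over the 6 Dusp members, Dusp5 made up 5.71% and 3.96% in Tfh T32 and T53, against 11.8% and 8.36% in non-Tfh T32 and T53. Dusp2 made up 21.1% and 20.03% in Tfh cells against 32.4% and 42.3% in non-Tfh cells. Dusp1 made up 34.9% and 38.5% in Tfh cells against 23.3% and 24.1% in non-Tfh cells, and Dusp6 20.99% and 18.9% in Tfh cells against 15.9% and 12.1% in non-Tfh cells. None of these 4 shares overlapped between the groups, whereas those of Dusp4 and Dusp10 did. With 2 libraries in each group such separation is common, and the levels of 52.2% of all genes tested did not overlap. The level of Dusp1 was 1.65 and 1.92 times that of Dusp2 in Tfh cells and 0.718 and 0.571 times in non-Tfh cells, so the ratio did not overlap although Dusp1 itself did. These shares are of 1 total, so a lower share of some genes raises that of the others. The sum of the 6 Dusp members was 89.6 and 143 CPM per kilobase in Tfh cells against 103 and 176 in non-Tfh cells and overlapped. The sum of the 4 Sprouty and Spred members was 17.1 and 21.2 CPM per kilobase in Tfh cells against 11.3 and 12.0 in non-Tfh cells and did not overlap.

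Several members differed between libraries of the same group. Dusp1 was 1.76 times as high in T53 as in T32 among Tfh libraries and 1.77 times among non-Tfh libraries, Dusp2 was 1.51 and 2.23 times as high, Dusp10 1.42 and 1.46 times and Dusp6 1.43 and 1.30 times. In all, 6 of the 9 members, those 4 with Dusp5 and Spred2, were higher in T53 within both groups, against 31.1% of all genes tested. Dusp4 was 2.94 times as high in T53 among Tfh libraries but 0.942 times among non-Tfh libraries, and Spry1 was at 1.31 and 0.891 times. Of 16 tested early genes that ERK induces, 12 were higher in T53 within both groups, among them Fos (1.38 and 1.58 times), Jun (1.43 and 1.57 times) and Nr4a1 (1.35 and 1.98 times). These 3 were named after their values were seen. Of 10 stress and dissociation genes, 6 were higher in T53 within both groups. T53 was also the shallower library in both groups, and the part of depth or of handling in these ratios was not tested. Dusp5 (1.10 and 1.20 times) and Spred1 (1.17 and 0.966 times) differed least between the numbers among the 9 members.

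**Figure D3:**
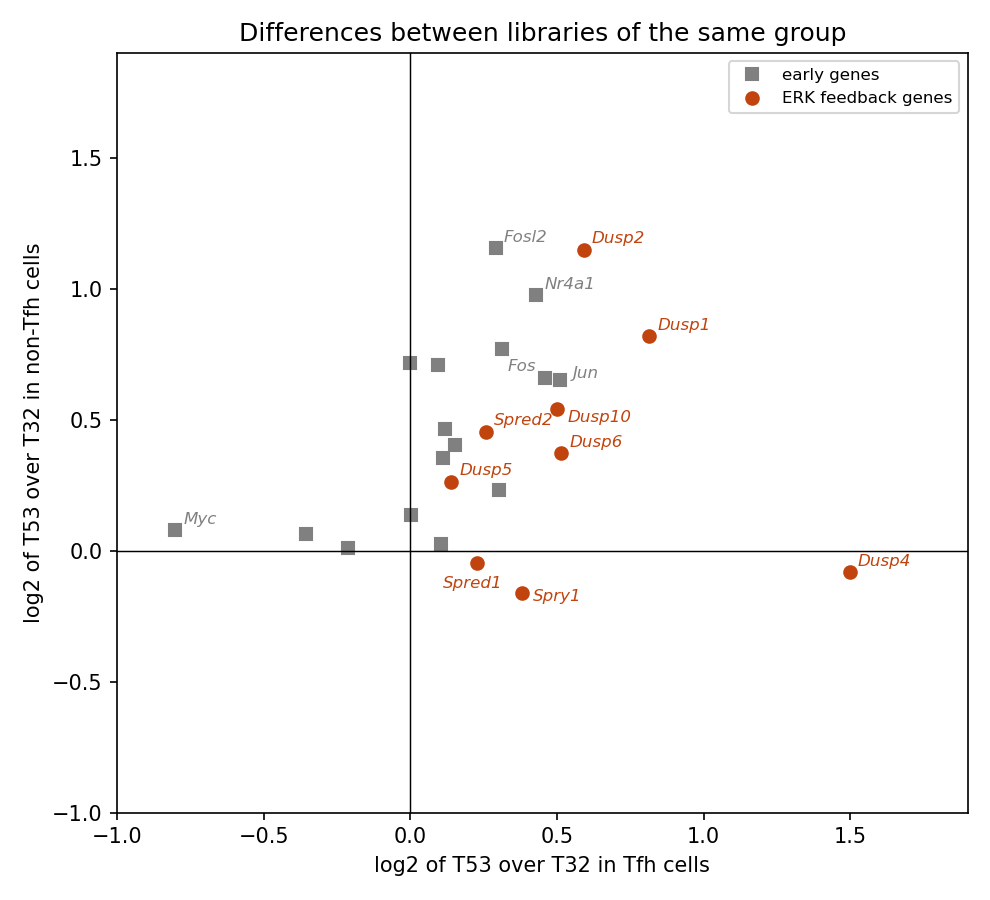
Log2 ratio of T53 over T32 within Tfh cells (x axis) and within non-Tfh cells (y axis) for the 9 tested ERK feedback genes (circles) and 16 early genes (squares), computed on CPM with 0.5 added. Dusp1, Dusp2, Dusp6 and Dusp10 lie in the upper right, Dusp4 lies far to the right at a non-Tfh ratio of 0.942-fold, and most early genes lie above 0 on both axes.

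Of the family members outside the set, Dusp16, a phosphatase for JNK, rose 3.22-fold, with 9.05 and 15.4 CPM in Tfh cells against 3.05 and 4.50 CPM in non-Tfh cells (1.69 ± 0.358 on the log2 scale, edgeR adjusted p = 0.0388). The groups did not overlap. The call was lost without Tfh T53 (adjusted p = 0.143), without non-Tfh T32 (0.0987) and with limma-voom (0.0597). An antisense transcript, Gm36328, overlaps it. Dusp7, a cytoplasmic ERK phosphatase like Dusp6, measured 43.1 and 41.6 CPM in Tfh cells against 60.3 and 54.1 CPM in non-Tfh cells and did not pass (-0.43 ± 0.126, adjusted p = 0.0948), though it did without the count filter (0.0491). Dusp8, Dusp9, Spry4 and Spred3 had at most 14 counts in a library and Spry3 had none, so these 5 were not tested. Of 8 tested atypical dual-specificity phosphatases, which lack the kinase-binding part of the family, none was called by edgeR, and the most abundant, Dusp11, measured 195 and 191 CPM in Tfh cells against 244 and 244 CPM in non-Tfh cells (adjusted p = 0.129), followed by Dusp12 (adjusted p = 0.968). At an unadjusted p below 0.05 there were 3, against 22.0% of all genes tested, and DESeq2 called 0.

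Over 10 lists of genes upstream, beside and downstream of the feedback, 8 of 109 tested genes were called higher, against 4.47% of all genes tested, and 8 lower, against 4.02%, counting each gene once. The lists are small, and their counts are given as a description. Several of the genes named below overlap other genes whose reads cannot be told apart without the strand, such as Dok2 with Xpo7. Of 15 Raf, MEK and ERK kinases and scaffolds, 2 rose, among them the scaffold Ksr1 by 2.00-fold (log2 fold change 0.998 ± 0.208, adjusted p = 0.0391). Of 13 Ras activators and Ras proteins, 1 rose and 3 fell. Ptpn11, the phosphatase Shp2, which promotes Ras activation, rose 4.22-fold, with 861 and 1132 CPM in Tfh cells against 216 and 256 CPM in non-Tfh cells (adjusted p = 0.00258). The Rap and Ras exchange factor Rasgrp2 fell 7.51-fold (adjusted p = 0.0106), the Ras relative Rras2 fell 4.96-fold (adjusted p = 0.0245), and Rasgrp1, which activates Ras below the T cell receptor, fell 1.66-fold (adjusted p = 0.0239). With Tfh T32 left out, Rasgrp2 had a log2 fold change of -3.54 and Rras2 one of -3.40. Calls were lost without Tfh T32 for Rasgrp1 (adjusted p = 0.107) and Ksr1 (0.0605), and without Tfh T53 for Rasgrp1 (0.0711) and Ksr1 (0.129). They were lost without non-Tfh T32 for Rasgrp2 (0.121) and Rras2 (0.0548), and without non-Tfh T53 for Rasgrp1 (0.0551), Rasgrp2 (0.150) and Rras2 (0.0549).

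Of 8 tested Ras GTPase-activating proteins, the class that neurofibromin belongs to, 1 rose and 2 fell. The shares of all genes tested were 4.47% called higher and 4.02% called lower, and with 8 genes the counts are a description only. Dab2ip rose 20.2-fold, with 32.5 and 42.1 CPM in Tfh cells against 2.01 and 1.57 CPM in non-Tfh cells (log2 fold change 4.34 ± 0.244, adjusted p = 0.000516). Rasa3 fell 2.77-fold and Rasa4 fell 5.88-fold (edgeR adjusted p = 0.00922 and 0.0173). Rasa4 had low counts, 7 and 5 in Tfh T32 and T53 and 61 and 33 in non-Tfh T32 and T53. Its call was lost when Tfh T32 or non-Tfh T32 was left out (log2 fold change -2.23 and -2.39). Of 18 other inhibitors and Sprouty partners only the Ras inhibitor adaptor Dok2 was called, falling 1.88-fold (adjusted p = 0.0318), and not without Tfh T53 (0.124) or non-Tfh T32 (0.0694). None of 11 tested p38 and JNK kinases was called by edgeR, and 0 by DESeq2. At an unadjusted p below 0.05 there were 2, against 22.0% of all genes tested. The most abundant, Map3k5 (edgeR adjusted p = 0.962) and Mapk14 (0.998), had log2 fold changes of -0.016 and -0.00090.

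**Figure D4:**
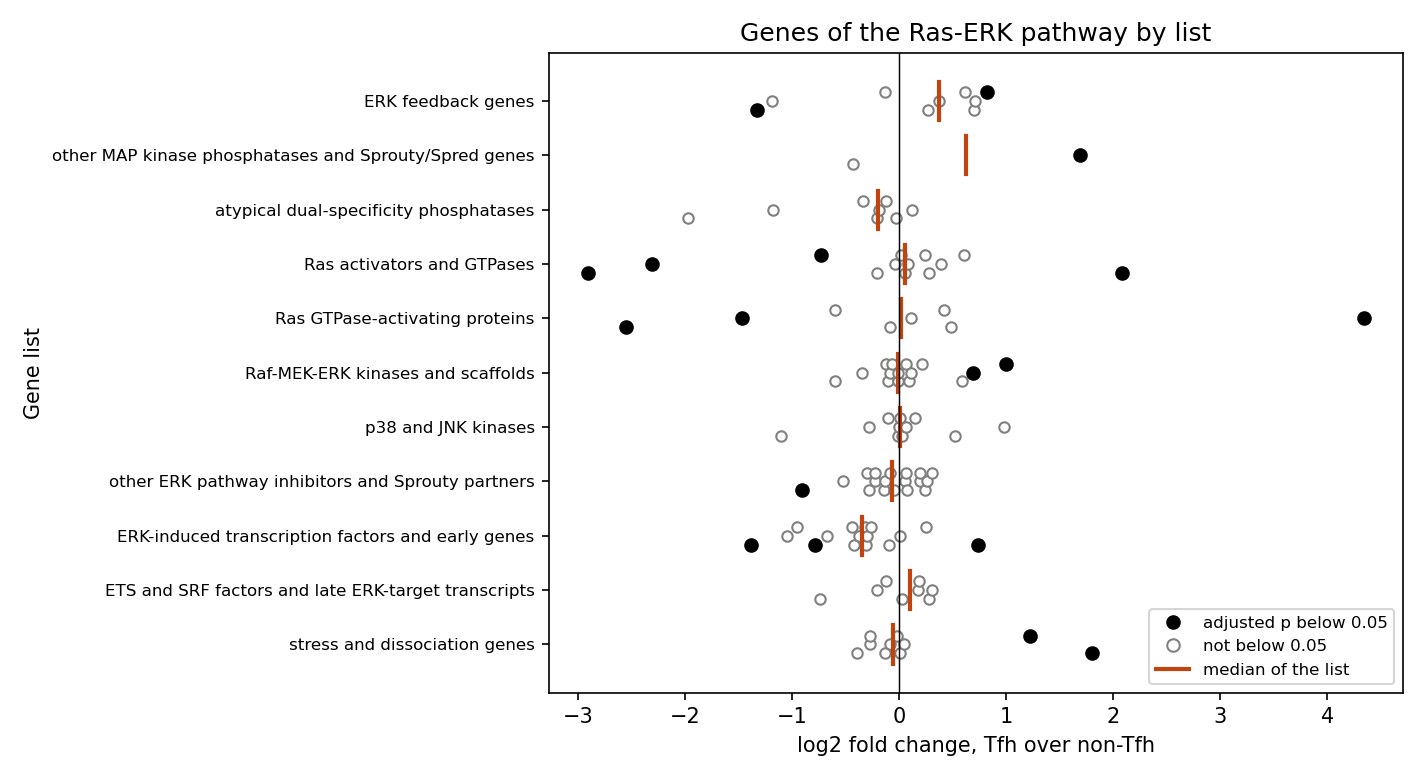
Log2 fold change, Tfh over non-Tfh, of each tested gene in the ERK feedback set and in 10 pathway lists, with filled points for an adjusted p below 0.05 and a coloured bar for the median. The medians run from -0.35 for early genes to 0.63 for the list holding Dusp7 and Dusp16. That list has only 2 tested genes, Dusp7 (-0.43) and Dusp16 (1.69), which lie on opposite sides of 0. The filled points farthest from 0 are Dab2ip (4.34) and Rasgrp2 (-2.91).

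Downstream, 13 of 16 tested early genes had a log2 fold change below 0, against 5930 of all 11702 genes tested. Their median was -0.35, against -0.0054 over all genes. By edgeR 3 were called, against 8.49% of all genes tested, and DESeq2 called 6, against 1139 of all genes. Klf6, a zinc finger factor, fell 2.61-fold (adjusted p = 0.00805), Ier2 fell 1.73-fold (adjusted p = 0.0148) and Egr2, a factor induced by the T cell receptor, rose 1.67-fold (adjusted p = 0.0349). The calls of Ier2 were lost without Tfh T32 (0.0819) or Tfh T53 (0.0554), and those of Egr2 without Tfh T32 (0.154) or non-Tfh T32 (0.0776). Of 8 tested ETS and serum response factors and late targets none was called by edgeR, and 0 by DESeq2. At an unadjusted p below 0.05 there was 1, against 22.0% of all genes tested. Ets1 and Elk4, the most abundant, had log2 fold changes of 0.17 and 0.31 (edgeR adjusted p = 0.564 and 0.235). Of 10 tested stress and dissociation genes, which tissue handling can induce along with Dusp1, Gadd45a rose 3.49-fold (adjusted p = 0.00891) and Gadd45b rose 2.33-fold (adjusted p = 0.00948), and the list's median was -0.056. The transcript E230016M11Rik overlaps Gadd45a on the other strand and had 63 to 90 counts in Tfh and 38 to 54 counts in non-Tfh libraries.

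The genes whose profiles over the 4 libraries were closest to those of the called members were found among 9257 genes, by the distance between log2 CPM centred on each gene's mean. Closest to Dusp5 were Fam69a (distance 0.0535), Galnt10 (0.0909) and Abcg3 (0.100), with log2 fold changes of -1.32, -1.39 and -1.46. Closest to Spred1 were Syt11 (0.0307), 4921524J17Rik (0.0488) and Klf10 (0.0498), with log2 fold changes of 0.84, 0.81 and 0.81. With 4 libraries such a profile holds little more than the group difference.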

How the data were processed

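Stranded total RNA libraries from 4 sorted samples, 2 Tfh and 2 non-Tfh, were sequenced as read pairs, per the labels. The deposited values are whole-number counts for each Ensembl gene, made by the authors with TopHat2, Bowtie2 and HTSeq on GRCm38 (mm10), per the submitters' processing notes; versions, annotation and strand setting are not given in the sources used here. Symbols, positions and exon lengths came from GENCODE on GRCm38, which matched 37693 of 39179 identifiers; the 1486 others held 0.209 to 0.228% of counts and stayed in the totals. Promoters came from RefSeq (GRCm38.p6).

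Groups were compared in R 4.3.3 with edgeR 4.0.16: filterByExpr with the group, TMM scaling, robust quasi-likelihood fits with no term but the group (residual df 2), and two-sided tests with Benjamini-Hochberg adjustment at 0.05 over 11702 genes. An SE was taken from the test, by dividing the size of the log2 fold change by the root of its F. An exact permutation test of 2 against 2 samples cannot go below p = 0.333. Replicates of a group differed by more than sampling noise.

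The members and lists were chosen with earlier results of these data known. All members and their family were named, plus up to 4 called genes per list with the smallest p, or, in a list with no call, the 2 most abundant. Some genes that this rule took are not reported here. Profiles were compared for genes averaging at least 5 CPM, with 0.5 added before the log. Alternatives were DESeq2 1.42.0, limma-voom (limma 3.58.1), upper-quartile or RLE scaling, other count filters, non-robust dispersions, a replicate block and leaving out each library. The code was tested on simulated data; tables and figures used Python 3.11.15, pandas 2.3.3, numpy 2.4.6 and matplotlib 3.10.9.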

Additional observations from a re-analysis of the deposited data

How the results depend on the processing

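Under the 12 alternatives Dusp5 stayed lower and passed the test every time, and Spred1 stayed higher and passed in all but the one without Tfh T53. Without a count filter 1986 genes were called in all (1006 higher, 980 lower), 3 members were higher (Spred1 with Spry1 at 0.70 and Spred2 at 0.60), and the lists gave 2 calls for other MAP kinase phosphatases, 6 for Ras GTPase-activating proteins, 3 for p38 and JNK kinases, 2 for other inhibitors, 8 for early genes and 2 for ETS factors and late targets. A replicate block for T32 and T53 gave 2120 calls (1069 higher, 1051 lower), with 4 members higher (Dusp1 at 0.37, Spry1 at 0.69, Spred2 at 0.63 and Spred1) and 2 lower (Dusp2 at -1.10 and Dusp5). In the lists that block gave 2, 6, 3, 2, 7 and 1 calls in the order above, Dusp7 (-0.44) among the first, and 2 atypical phosphatases. Samples of the same number deviated together (r = 0.372 across genes, which are not replicates), but with 2 pairs and no label for the number no pairing was assumed. DESeq2 called 6 early genes and limma-voom 0 of the other MAP kinase phosphatases. With 1 library left out, the lone sample being assumed to vary like the other group, calls numbered 545 to 884 (298 to 454 higher, 247 to 435 lower), with 0 to 2 members higher and 1 to 2 lower. The lists then gave 0 to 1 calls for other MAP kinase phosphatases, p38 and JNK kinases and other inhibitors, 1 to 4 for Ras activators, 2 to 3 for Ras GTPase-activating proteins, 0 to 2 for Raf, MEK and ERK and 2 to 4 for early genes. Log2 fold changes ranged from -0.073 to 0.83 for Dusp1, -1.67 to -0.51 for Dusp2, -0.21 to 1.33 for Dusp4, -0.39 to 0.16 for Dusp10 (0.11 without Tfh T32), 0.72 to 0.94 for Spred1 and 0.39 to 0.85 for Spred2. Uncalled genes that changed sign were Dusp12 (-0.40 to 0.24 with a library left out, 0.11 without non-Tfh T32), Map3k5 (-0.087 to 0.060) and Mapk14 (0.0021 with upper-quartile scaling, 0.0054 at 5 CPM, -0.083 to 0.098 with a library left out, 0.056 without non-Tfh T32). The cause of these shifts was not tested. Spry2 and 5 of its and the phosphatases' relatives had too few counts to test.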
